A study of Mus musculus with 6 samples.

Results

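The nuclear genes for the enzymes of oxidative phosphorylation were compared, complex by complex, between thyroid tumor cells with nuclear YAP alone and with nuclear YAP and mutant Braf. Members were all genes of the table whose symbol begins with Nduf and a subunit letter (A, B, C, S or V) and number (complex I), is Sdha, Sdhb, Sdhc or Sdhd (complex II), or begins with Uqcr (complex III), Cox4 to Cox8 (complex IV) or Atp5 (complex V). Symbols marked -ps or -rs, of which there were 8, were left out. The rule found 88 of 35027 genes, and the 77 with a mean of at least 1 over all libraries were compared, among 7319 genes that reached that mean. Total RNA of sorted, Kate-positive cells from thyroid tumors of mice was sequenced, in 3 libraries per genotype. All mice carried a thyroid-specific Cre, a Cre-dependent allele for the dox-responsive activator and the Kate fluorescent reporter, and a dox-driven YAP1 transgene with the S127A change, which keeps YAP in the nucleus. The YAP group carried these alleles alone, and the BrafYAP group also expressed Braf V600E from the endogenous locus. Mice of both groups were on a mixed background and by the labels received dox chow from 4 weeks of age, although the text of the study also names a later start, and the age at collection is not given in the sources used here. By the labels, 3 tumors were pooled for a YAP library and 1 tumor was used for a BrafYAP library. The methods of the study describe single tumors for all replicates, and if the labels hold, genotype and pooling cannot be told apart.

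Oxidative phosphorylation joins an electron transport chain to ATP synthesis in the inner mitochondrial membrane. Complexes I and II pass electrons from NADH and succinate to ubiquinone, complex III passes them on to cytochrome c, complex IV reduces oxygen, and complex V uses the proton gradient built by complexes I, III and IV to make ATP. A few core subunits are encoded by mitochondrial DNA, and 0 symbols in the table begin with mt-, so only nuclear genes are described. Thyroid follicular cells use mitochondrial ATP for iodide uptake and hormone synthesis, and the balance of respiration and glycolysis is a long-studied feature of tumor cells.

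The libraries held an estimated 26.1 to 36.9 M reads. The deposited TPM (reads scaled by gene length and library total) were taken to be divided by genomic span, which counts introns. Values of one gene may therefore be compared between libraries but not between genes. Markers of immune cells summed to 1194 to 4238 TPM in the YAP and 347 to 1290 in the BrafYAP libraries, with 3 of 7 at a mean of at least 1 (Lyz2, Cd68 and Csf1r), and epithelial markers (5 of 5) to 805 to 2276 and 932 to 2242. Thyroid markers (4 of 8 at a mean of at least 1) summed to 11.8 to 16.3 and 12.3 to 45.6. The defining markers Tshr and Slc5a5 were below that mean. Such sums depend on the span of each gene, so they do not rank cell types. In estimated reads, thyroid markers held 11807 to 31308 per YAP and 10940 to 38199 per BrafYAP library. Immune markers held 175079 to 621533 and 57719 to 181811 reads, and epithelial markers 134730 to 387766 and 191281 to 344759. The summed marker levels were 0.449 to 3.32 and 0.110 to 0.517 for skeletal muscle, with the defining marker Myh1 at 0 in all libraries, and 0.176 to 1.55 and 0.0480 to 1.09 for adipocytes, with Ucp1 at 0. They were 6.75 to 14.3 and 6.59 to 10.8 for fibroblasts, 0.140 to 2.34 and 0.0644 to 0.689 for endothelial cells, 4.08 to 27.3 and 0.869 to 16.6 for erythroid cells, and 0.287 to 10.8 and 0.170 to 27.1 for C cells. In sorted bulk cells, a change in RNA per cell and a change in the share of a cell type cannot be told apart, and the part of these other cells in the results was not tested.

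Taken as a list, the oxidative phosphorylation genes had a median difference close to that of all genes tested, with a narrower spread of differences. None of the 77 members passed the test (0 at an adjusted p under 0.05, limma with Benjamini-Hochberg adjustment over all 7319 genes), against 0.246% of all genes tested. At an unadjusted p under 0.05, 2 of 77 members were higher in BrafYAP (Uqcrfs1 and Cox5a), against 10.7% of all genes. At that p, 1 of 77 was lower (Uqcrb), against 9.17%, so the share of members was the smaller in both directions. The 3 YAP and 3 BrafYAP values did not overlap in 6 members with BrafYAP higher (Uqcrfs1, Atp5d, Cox5a, Ndufb9, Ndufs3 and Ndufv1), where 11.8% of all genes had groups apart in that direction. They did not overlap in 6 with BrafYAP lower (Uqcrb, Sdhc, Ndufa9, Ndufb8, Ndufs1 and Ndufa12), where the share of all genes was 16.4%. In both directions, the share of the 77 members with groups apart was below the share of all genes. Log2 fold changes (BrafYAP minus YAP, on log2 of the value plus 1) were above 0 in 34 members and below 0 in 43, and their median was -0.08, beside -0.06 for all genes tested. The quartiles of the members were -0.23 and 0.14, and those of all genes tested -0.34 and 0.39. The members summed to 0.840 to 1.09% of the deposited total per library, a share that depends on the genomic spans. With exonic length in place of span, the 73 protein-coding members summed to 1.35 to 1.68%.

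**Figure D1:**
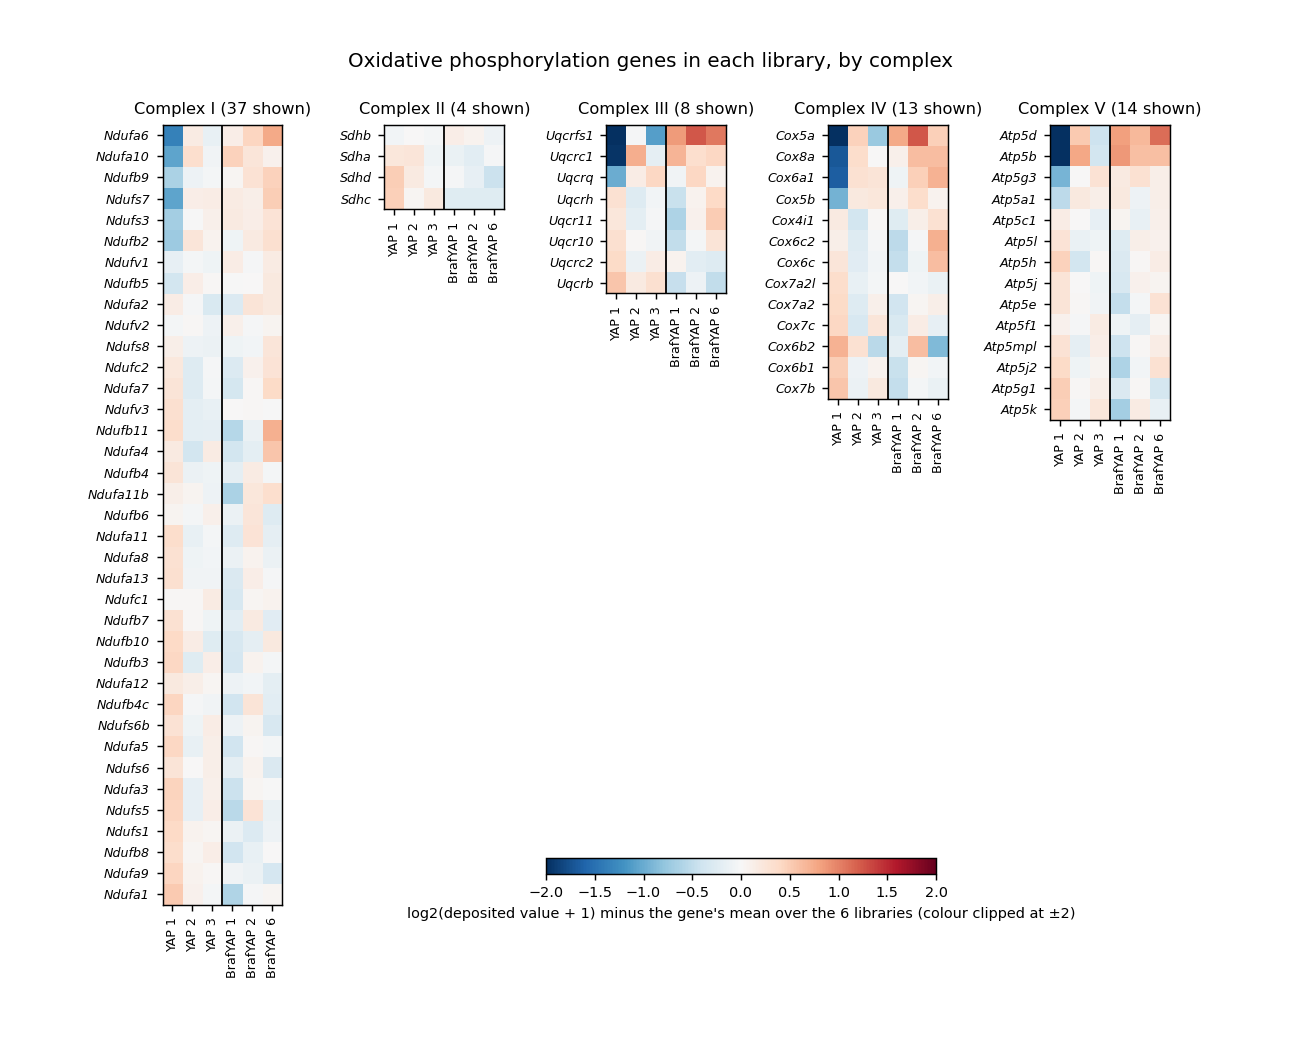
Deviation of log2(deposited value + 1) from the mean of each gene over the 6 libraries (colour, log2 units, clipped at ±2), for 76 of the 77 members by complex, with YAP libraries left and BrafYAP libraries right of the black line. Most rows are pale, and the darkest blue cells in YAP replicate 1 belong to members that lay at least 1 log2 unit below the other YAP libraries.

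Members varied less within groups than the median gene tested. The median SD within groups was 0.283 log2 units for members and 0.358 for all genes tested, and the median half-width of the 95% interval of the log2 fold change was 0.64 and 0.69. For 54 of the 77 members (70.1%) that interval lay within 1 log2 unit of 0 on both sides, as it did for 44.2% of all genes tested. For the remaining 23, changes larger than that were compatible with the spread between these libraries.

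Complex I oxidizes NADH, and 38 of its 40 listed genes were tested, with 17 above 0, 21 below 0 and a median log2 fold change of -0.07. Ndufs1, which carries several iron-sulfur clusters of the electron path in the peripheral arm, had values of 3.97, 2.94 and 2.87 TPM in the YAP libraries and 2.48, 2.11 and 2.51 in the BrafYAP libraries. All BrafYAP values were below all YAP values, and the log2 fold change was -0.33 (SE 0.20, adjusted p = 0.399, limma).

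The other core subunits of complex I named here had log2 fold changes from 0.06 to 0.51, with 95% intervals that included 0. Ndufv1, which binds the FMN cofactor that accepts electrons from NADH, had 33.8, 37.3 and 36.0 TPM in YAP and 42.3, 37.7 and 42.8 in BrafYAP, groups that were narrowly apart (log2 fold change 0.19, 95% interval -0.34 to 0.72). Ndufs3, a core subunit of the peripheral arm, had 2.97, 5.31 and 5.81 TPM in YAP and 6.16, 5.96 and 6.67 in BrafYAP, also apart (0.39, interval -0.25 to 1.02). The log2 fold changes of the iron-sulfur subunits Ndufv2, Ndufs8 and Ndufs7 were 0.08, 0.06 and 0.51, with groups that overlapped. Ndufs7 was low in YAP replicate 1, at 5.54 TPM beside 13.9 and 14.1 in YAP replicates 2 and 3. Among the accessory subunits, the log2 fold changes ran from -0.39 (Ndufa1) to 0.88 (Ndufa6), and Ndufa6 was one of the genes low in YAP replicate 1. Ndufb2, with a log2 fold change of 0.28, overlaps the annotated Braf gene. The sources used here state no strand, so reads where Ndufb2 and Braf overlap cannot be told apart by strand. The same holds for Uqcrb, Cox5a, Atp5d and Atp5b and the genes that overlap them. Spans of other members, such as Ndufs1, Ndufs3, Atp5a1, Cox4i1 and Uqcrc2, also overlap annotated genes.

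Complex II, succinate dehydrogenase, also works in the citric acid cycle, and all 4 of its subunits are nuclear genes. Its median log2 fold change, -0.34, was the lowest of any complex, and 3 of 4 genes were below 0. Sdhc, which with Sdhd anchors the enzyme in the membrane and forms the quinone site, had 9.74, 6.99 and 7.91 TPM in YAP and 5.55, 5.56 and 5.56 in BrafYAP. Every BrafYAP value lay below every YAP value, and the BrafYAP libraries hardly differed from one another (log2 fold change -0.48, SE 0.22, adjusted p = 0.276). Sdhd had 37.8, 30.2 and 25.7 TPM in YAP and 26.2, 23.5 and 19.4 in BrafYAP, groups that overlapped by a single pair of libraries (-0.42, SE 0.26, adjusted p = 0.411). The catalytic flavoprotein subunit Sdha had 12.9, 13.1 and 10.3 TPM in YAP and 9.87, 9.30 and 10.7 in BrafYAP (-0.25, SE 0.22). The iron-sulfur subunit Sdhb had 10.4, 10.9 and 10.5 in YAP and 12.0, 11.4 and 10.0 in BrafYAP (0.06, SE 0.21). With the trend of fold change on base composition removed, the median of the complex was -0.12 and the log2 fold change of Sdhc -0.22.

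The Sdhd promoter illustrates the elements found upstream of many respiratory genes. The stretch below, 60 bases of the minus strand before the gene's start (chr9:50603879-50603938, GRCm38), is shown because it holds an NRF1 and an ETS motif, in capitals. NRF1 and the ETS-family factor GABP are known activators of nuclear respiratory genes.
Sdhd promoter: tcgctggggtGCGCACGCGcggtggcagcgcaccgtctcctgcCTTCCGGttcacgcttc

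Promoters from RefSeq (GRCm38.p6, 250 bases before to 50 after the start) were matched for 61 of the 73 protein-coding members tested, which gave 66 promoters. The NRF1 motif GCGCANGCG, on either strand, was present in 28.8% of them, in 14.6% of 5952 promoters of genes tested here and in 6.25% of all 32851 promoters. The ETS motif CCGGAAG was present in 24.2%, 21% and 8.86%, and the YY1 motif AAGATGGCG in 9.09%, 3.48% and 1.40%. The median log2 fold change was -0.09 for the 18 members with an NRF1 motif and -0.08 for the 43 without. The CCAAT box was present in 42.4% of member promoters, 38.8% of promoters of genes tested and 37.4% of all promoters. The TATAAA box was present in 9.09%, 8.01% and 13.6%. The ERR motif TCAAGGTCA was present in 3.03%, 0.386% and 0.423%, which for members means 2 genes. No motif searched contains another. None of the 6 motifs was recorded for Uqcrfs1, Cox5a or Atp5d, which says only that no match was found in the promoters searched.

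Complex III held both the highest and the lowest log2 fold change among all members, and its median was -0.00032 over 8 genes (4 above and 4 below 0). Uqcrfs1, the Rieske iron-sulfur protein that takes the first electron from ubiquinol, had 1.96, 10.8 and 4.65 TPM in the YAP libraries and 20.8, 27.5 and 24.0 in the BrafYAP libraries. The lowest BrafYAP value was above the highest YAP value, and the YAP values themselves spread widely (means 5.81 ± 4.55 and 24.1 ± 3.34, SD, n = 3). The log2 fold change was 2.10 (SE 0.49, adjusted p = 0.0953, limma), short of the threshold. It passed only with array weights (adjusted p = 0.00825) and without YAP replicate 2 (2.61, adjusted p = 0.0362), and without YAP replicate 1 it was 1.61 (adjusted p = 0.218). Over the 19 alternatives the adjusted p ran from 0.00825 to 0.292, and the direction was the same in all of them. Uqcrb, a small subunit near the quinone pocket, ran the other way, with 14.2, 10.7 and 12.0 TPM in YAP and 6.49, 8.66 and 6.38 in BrafYAP. Its groups did not overlap (-0.70, SE 0.24, adjusted p = 0.173), and its adjusted p ran from 0.0562 to 0.543 over the alternatives.

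The ratio of a pair of genes within a library does not depend on the scaling between libraries. On TPM recomputed with exonic length, the ratio of Uqcrfs1 to Uqcrb was 0.094, 0.693 and 0.265 in the YAP libraries and 2.19, 2.16 and 2.56 in the BrafYAP libraries. The groups did not overlap, in a pair chosen after its values were seen, and the ratio was lowest in YAP replicate 1. Against Uqcrc2, a core protein of the complex, the ratio of Uqcrfs1 was 0.0716, 0.58 and 0.204 in YAP and 0.967, 1.60 and 1.43 in BrafYAP. Uqcrc2 itself had 10.6, 7.26 and 8.86 TPM in YAP and 8.37, 6.69 and 6.50 in BrafYAP (log2 fold change -0.27, SE 0.24). The other core protein, Uqcrc1, had 6.79, 49.6 and 25.8 in YAP and 47.6, 37.5 and 39.4 in BrafYAP (0.95, SE 0.64, adjusted p = 0.443), with YAP replicate 1 again the lowest and YAP replicate 2 the highest of all libraries.

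The transcripts of Uqcrfs1 and Uqcrb differ sharply in base composition, which is shown because the libraries differed along that property (described further on). Each line gives the 100 bases of the coding sequence with the most G and C, which are in capitals, from the longest coding transcript of GENCODE M21 (mm10). In Uqcrfs1 (chr13:30540308-30545362, minus strand) the stretch covers bases 12 to 111 of the coding sequence and holds 81% G and C. In Uqcrb (chr13:66900617-66905378, minus strand) it covers bases 2 to 101 and holds 47%.
Uqcrfs1: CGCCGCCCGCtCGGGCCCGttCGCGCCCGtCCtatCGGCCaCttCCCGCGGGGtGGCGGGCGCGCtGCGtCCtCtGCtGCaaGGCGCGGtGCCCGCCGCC
Uqcrb: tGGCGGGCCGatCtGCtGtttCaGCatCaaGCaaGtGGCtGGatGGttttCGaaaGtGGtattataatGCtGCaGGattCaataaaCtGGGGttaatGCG

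**Figure D2:**
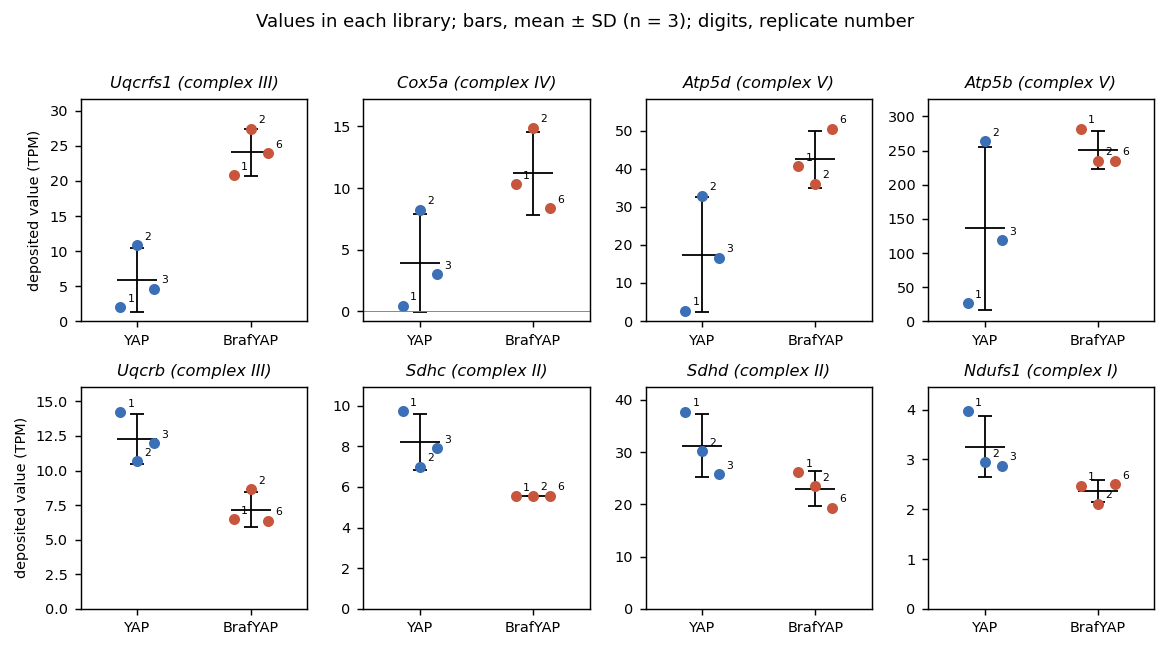
Deposited value (TPM, linear axis from 0) of 8 members in each library, with YAP replicates in blue, BrafYAP replicates in red, and the mean ± SD of 3 libraries as bars. In the upper row YAP replicate 1 is the lowest library of each gene, and in the lower row it is the highest.

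Complex IV, cytochrome c oxidase, had 13 of its 19 listed genes tested, with 7 above 0, 6 below 0 and a median log2 fold change of 0.04. Cox5a, a matrix-side subunit that binds the regulatory subunit COX4, had 0.459, 8.23 and 3.00 TPM in YAP and 10.3, 14.9 and 8.36 in BrafYAP. The groups were narrowly apart, since YAP replicate 2 and BrafYAP replicate 6 nearly met (log2 fold change 1.65, SE 0.63, adjusted p = 0.213). It passed only with array weights (adjusted p = 0.0196) and without YAP replicate 2 (adjusted p = 0.0496), and without YAP replicate 1 the log2 fold change was 0.97. Cox4i1, the main isoform of the regulatory subunit, had 75, 51.3 and 67.4 TPM in YAP and 55.9, 72.5 and 81.9 in BrafYAP, with groups that overlapped (0.12, SE 0.28). Cox5b, which binds zinc, had 11.4, 26.4 and 27 in YAP and 24.7, 29.6 and 24.1 in BrafYAP (0.35, SE 0.37).

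The richest 100 bases of the Cox5a coding sequence (chr9:57521274-57532426, plus strand) are bases 6 to 105, with 77% G and C. Those of Cox7b (chrX:106015700-106022450, plus strand), a small subunit at the lower end of the complex with a log2 fold change of -0.43, are also bases 6 to 105, with 54%.
Cox5a: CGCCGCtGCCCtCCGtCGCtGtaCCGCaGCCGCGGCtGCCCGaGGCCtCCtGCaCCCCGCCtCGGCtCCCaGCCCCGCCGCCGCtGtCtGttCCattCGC
Cox7b: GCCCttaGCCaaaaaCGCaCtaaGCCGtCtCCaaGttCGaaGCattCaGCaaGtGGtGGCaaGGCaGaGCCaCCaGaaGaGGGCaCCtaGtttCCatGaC

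Several complex IV subunits have tissue isoforms, and the sorted tumor cells held the common ones. Cox6a1 and Cox8a, the forms of most tissues, had log2 fold changes of 0.73 (SE 0.56) and 0.89 (SE 0.54), with YAP replicate 1 the lowest library in each. For Cox6a1 the values were 14.0, 57.3 and 55.0 TPM in YAP and 43.4, 64.7 and 75.3 in BrafYAP. For Cox8a they were 12.1, 53.4 and 41.8 in YAP and 44.5, 63.8 and 64.1 in BrafYAP. The muscle and heart isoforms Cox6a2 and Cox7a1 had 5 to 21 and 0 to 30 estimated reads per library, and Cox8b had 0 reads in all libraries but 1. Cox4i2, the lung isoform of the regulatory subunit, had 6 to 20 reads, and the testis isoforms Cox8c and Cox7b2 had at most 1 and 0 reads. Cox6b2, a form best known from testis, had a mean of 30.8 TPM recomputed with exonic length, beside 640 for the common form Cox6b1. The deposited values of Cox6b2 were 15.3, 11.4 and 5.93 TPM in YAP and 7.82, 14.5 and 4.48 in BrafYAP. Those of Cox6b1, on its own longer span, were 25.8, 16.8 and 18.9 in YAP and 13, 18.5 and 17.4 in BrafYAP. Neither form separated the groups (-0.30, SE 0.47, and -0.31, SE 0.27). Cox7a2 and Cox7a2l, the latter a supercomplex assembly factor, had log2 fold changes of -0.15 and -0.11.

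Complex V, the ATP synthase, had 14 of 17 listed genes tested, 5 above 0 and 9 below 0, with a median log2 fold change of -0.10. Atp5d, the delta subunit of the rotor stalk, had 2.70, 32.9 and 16.7 TPM in YAP and 40.6, 36.1 and 50.5 in BrafYAP. The groups were apart by the margin between YAP replicate 2 and BrafYAP replicate 2 (log2 fold change 1.72, SE 0.75, adjusted p = 0.260), and without YAP replicate 1 the log2 fold change was 0.81. Atp5b, the catalytic beta subunit, had 26.6, 264 and 119 TPM in YAP and 282, 235 and 235 in BrafYAP. YAP replicate 2 was level with the BrafYAP libraries, so the groups overlapped (1.39, SE 0.76, adjusted p = 0.354), and the value without YAP replicate 1 was 0.49.

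The alpha subunit Atp5a1, present in the enzyme in the same copy number as the beta subunit, did not share that spread. It had 78.4, 130 and 123 TPM in YAP and 131, 106 and 123 in BrafYAP (log2 fold change 0.15, SE 0.29). On TPM recomputed with exonic length, the ratio of Atp5b to Atp5a1 was 0.196, 1.17 and 0.557 in the YAP libraries and 1.25, 1.27 and 1.10 in the BrafYAP libraries. YAP replicate 2 lay inside the range of the BrafYAP libraries, and YAP replicates 1 and 3 lay below it. The c-ring subunit is encoded by separate genes for one mature protein, of which Atp5g3 had 44.6, 86.3 and 105 TPM in YAP and 97.4, 106 and 93.3 in BrafYAP (0.41, SE 0.36). Atp5g1 had 10.8, 7.52 and 8.08 in YAP and 5.85, 7.54 and 5.58 in BrafYAP (-0.42, SE 0.24), and Atp5g2 was below the minimum mean.

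The richest 100 bases of the Atp5d coding sequence (chr10:80138632-80145818, plus strand) are bases 6 to 105, with 77% G and C.
Atp5d: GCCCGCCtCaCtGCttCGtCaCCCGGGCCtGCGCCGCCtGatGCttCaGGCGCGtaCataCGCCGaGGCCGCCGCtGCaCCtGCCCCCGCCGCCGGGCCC

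**Figure D3:**
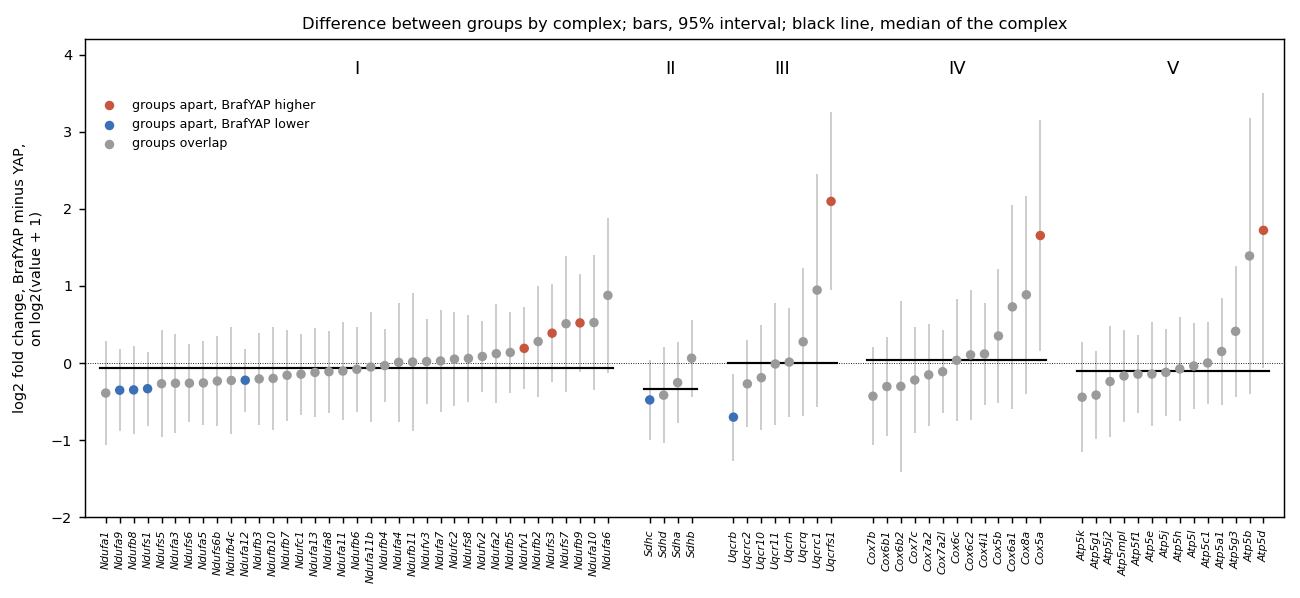
Log2 fold change (BrafYAP minus YAP, on log2 of the value plus 1) of 76 of the 77 members by complex, ordered within each, with 95% intervals as grey bars and the median of each complex as a black line. The medians lie between -0.34 (complex II) and 0.04 (complex IV), while Uqcrfs1, Atp5d, Cox5a and Atp5b stand above the other members with wide intervals.

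The members Ndufb4c, Cox6c2, Ndufa11b and Ndufs6b are annotated as processed pseudogenes, whose sequences were 100%, 97.0%, 94.8% and 96.6% identical to the transcripts of Ndufb4, Cox6c, Ndufa11 and Ndufs6. Reads of such pairs may have been divided between them, and values of the intronless copies are raised by their short span. Their log2 fold changes, -0.23, 0.11, -0.05 and -0.23, stood beside -0.03, 0.04, -0.10 and -0.26 for the coding genes. Without them, 33 of 73 members were above 0 and the median log2 fold change was the same, -0.08.

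The 11 members below the minimum mean included a long gene. Ndufs4, a complex I subunit needed for a stable NADH-oxidizing module, spans 100464 bases, of which 2708 are exonic. Its TPM recomputed with exonic length was 93.3, 64.6 and 74.3 in the YAP and 54.0, 57.4 and 54.9 in the BrafYAP libraries. The BrafYAP values were all below the YAP values, and in the fit on exonic TPM the log2 fold change was -0.46 (SE 0.27, adjusted p = 0.379, limma). Ndufa4l2, a hypoxia-inducible relative of Ndufa4, was low on both scales, at a mean of 4.05 exonic TPM, beside 229 for Ndufa4. Ndufa4, which carries a complex I name and is now placed with complex IV, had 18.4, 12.3 and 18.1 TPM in YAP and 12.3, 13.9 and 24.1 in BrafYAP (deposited values, log2 fold change 0.01, SE 0.33).

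Levels of the subunits relative to each other were read from TPM recomputed with exonic length. The median member of each complex stood at 131 (complex I), 215 (II), 181 (III), 170 (IV) and 109 (V), means over the 6 libraries and protein-coding members alone. The highest were Atp5a1 at 893 and Atp5b at 865, followed by Cox4i1 at 692, Cox6a1 at 655 and Cox6b1 at 640. The order of the group means differed. In the YAP libraries Atp5b averaged 591, below Cox6b1 at 701 and Cox4i1 at 653. Its single YAP values spread widely, at 116, 1110 and 548, and in YAP replicate 2 it stood above Atp5a1, at 947. In the BrafYAP libraries Atp5b averaged 1139, above Atp5a1 at 945, and Cox6b1 at 578 stood below Cox8a at 619. Within complex III the range was 3.33-fold, from Uqcrb at 140 to Uqcr10 at 467, and within complex II it was 3.31-fold, from Sdhc to Sdhd. It was wider in complexes I, IV and V, with Ndufb4 at 16.4, Cox6b2 at 30.8 and Atp5l at 23.9 at the lower ends. The exonic length counts every annotated exon of a gene. For Atp5l it was 6443 bases, while the longest coding transcript has 544. The length used lowers the level of such genes, so these lower ends and ranges depend on it. Neighbours in this order could overlap between libraries, as Atp5a1 and Atp5b did, and the reads of Ndufb4 may be divided with its copy.

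**Figure D4:**
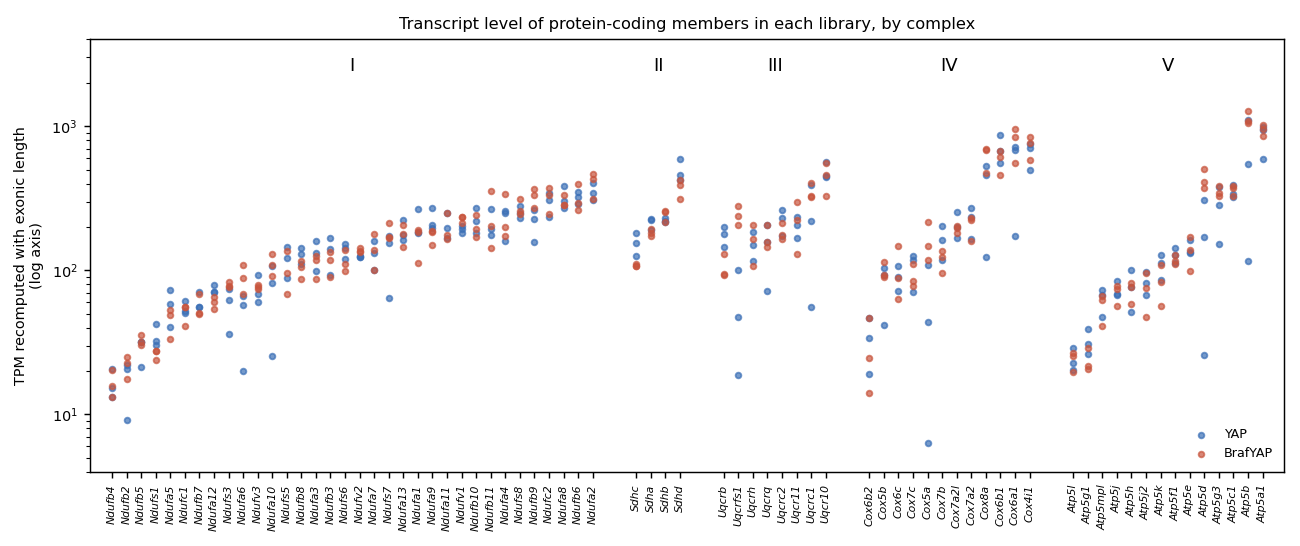
TPM recomputed with exonic length (log axis) of 72 of the 73 protein-coding members in each of the 3 YAP (blue) and 3 BrafYAP (red) libraries, ordered by mean within each complex. Most genes vary little between libraries compared with the range between genes, and single blue points far below the rest are YAP replicate 1.

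The mobile carrier and 2 subunits lie outside the symbol rule and were compared beside the members. Cyc1, the cytochrome c1 subunit of complex III, had 2.48, 34.4 and 12.2 TPM in YAP and 50.5, 52.1 and 68.6 in BrafYAP, groups that did not overlap (log2 fold change 2.29, SE 0.77, adjusted p = 0.169, limma). Without YAP replicate 1 its log2 fold change was 1.41. Cytochrome c (Cycs), which takes the electron from it, had 18.8, 12.4 and 15.5 in YAP and 9.78, 9.11 and 6.70 in BrafYAP, also apart (-0.79, SE 0.26, adjusted p = 0.167). Ndufab1, the acyl carrier protein of complex I, had a log2 fold change of 0.56 with overlapping groups. The richest 100 bases of the Cyc1 coding sequence (chr15:76343523-76346260, plus strand) are bases 3 to 102, with 79% G and C.
Cyc1: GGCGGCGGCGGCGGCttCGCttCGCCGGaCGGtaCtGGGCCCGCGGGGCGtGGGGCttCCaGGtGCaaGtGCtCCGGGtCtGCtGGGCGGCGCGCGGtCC

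Other lists of the pathway gave 0 genes at an adjusted p under 0.05 (limma, adjusted over all genes tested), against 0.246% of all genes tested. Of 47 assembly factors 31 were tested, with a median log2 fold change of -0.14. At an unadjusted p under 0.05 (limma), 4 were higher and 4 lower in BrafYAP. Over all genes tested, 10.7% were higher and 9.17% lower at that p, shares that also stand beside the counts of the lists below. The complex II assembly factor Sdhaf1 had 0.397, 0.782 and 0.728 TPM in YAP and 2.63, 4.03 and 9.68 in BrafYAP (1.83, SE 0.40, adjusted p = 0.0903). The copper chaperone Cox17, which loads complex IV, had 12.6, 8.56 and 14.0 in YAP and 5.46, 6.37 and 3.99 in BrafYAP (-1.01, SE 0.28). Bcs1l, which inserts the Rieske protein into complex III, had 6.69, 5.60 and 5.81 in YAP and 2.96, 2.48 and 5.11 in BrafYAP (-0.68, SE 0.27). Of 17 citric acid cycle genes 15 were tested and 0 had an unadjusted p under 0.05. Mitochondrial ribosomal proteins (68 of 78 tested) had a median log2 fold change of -0.05, with 4 higher and 4 lower at that unadjusted p, and cytosolic ribosomal proteins (87 of 99) a median of -0.17, with 3 higher and 2 lower. Of 18 regulators of mitochondrial biogenesis, 4 were tested and all 4 were above 0, with 0 at an unadjusted p under 0.05.

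Within the YAP group, replicate 1 differed from replicates 2 and 3 in both directions. It was above their mean in 54 of 77 members and below it in 23, and its median deviation from the mean of all libraries, 0.26 log2 units, was the highest of the 6. YAP replicate 1 was at least 1 log2 unit below the mean of YAP replicates 2 and 3 in 14 of 77 members (18.2%, beside 15.4% of all genes tested) and at least 1 above it in 0. The 14 included Atp5d and Atp5b (2.73 and 2.69 below), Uqcrc1, Cox5a, Cox6a1, Cox8a, Uqcrfs1, Ndufa6, Uqcrq, Ndufs7, Ndufa10, Cox5b and Atp5g3. All 14 had a log2 fold change above 0, with a median of 0.80, which was 0.19 without that library. The other 63 members had log2 fold changes from -0.70 to 0.52 and a median of -0.14. The 14 were picked for a low value in YAP replicate 1, which enters the YAP mean. Their signs, the change without that library and the contrast with the other 63 therefore follow in part from the choice. YAP replicate 1 also had the highest summed immune marker level of the 6 libraries, 4238 TPM, and the part of that in its values was not tested.

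These genes shared a property of sequence that the rule did not use. The property was the G and C content of the richest 100-nt window of each transcript, untranslated parts included. These windows were taken at spaced starts, so a slightly richer window may lie between them. The coding windows printed above were searched at every base, and that of Uqcrfs1 holds 81%. On the spaced windows the content was 67 to 80% in the 14 genes, and 12 of them were above the members' median of 68%. Across the 77 members it went with the deviation of YAP replicate 1 from the other YAP libraries (Pearson r = -0.62, Spearman rho = -0.66) and with the log2 fold change (0.61 and 0.61). Over the 7291 genes with a window the same correlations were -0.45 and -0.57, and 0.35 and 0.42. Without YAP replicate 1 the correlations with the log2 fold change were 0.47 and 0.39 over the members, and 0.24 and 0.28 over all genes. The deviation of each library from the mean of all 6 also went with the window over the members. Pearson r was -0.63, 0.50 and -0.35 in YAP replicates 1, 2 and 3. In BrafYAP replicates 1, 2 and 6 it was 0.62, 0.46 and 0.35. These are descriptions over genes of the same 6 libraries, and genes are not independent replicates. In the coding sequence the richest window began within the first 20 bases in 41 of 73 members and in 12 of the 14, a stretch that in many of these genes encodes the mitochondrial targeting signal.

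Among the members with the richest windows (71 to 81%, 25 genes), 20 were above 0 and the median log2 fold change was 0.39, or 0.08 without YAP replicate 1. In the middle group (66 to 70%, 26 genes) 9 were above 0 with a median of -0.11, and in the poorest (55 to 65%, 26 genes) 5 were above 0 with a median of -0.25. All genes tested followed the same order, with medians of 0.27 for the richest, -0.20 for the middle and -0.24 for the poorest windows. With the trend on this property removed from every library, the log2 fold change was 1.62 for Uqcrfs1 (adjusted p = 0.102), 1.19 for Cox5a and -0.45 for Uqcrb. The part of base composition in the differences between groups was not tested.

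**Figure D5:**
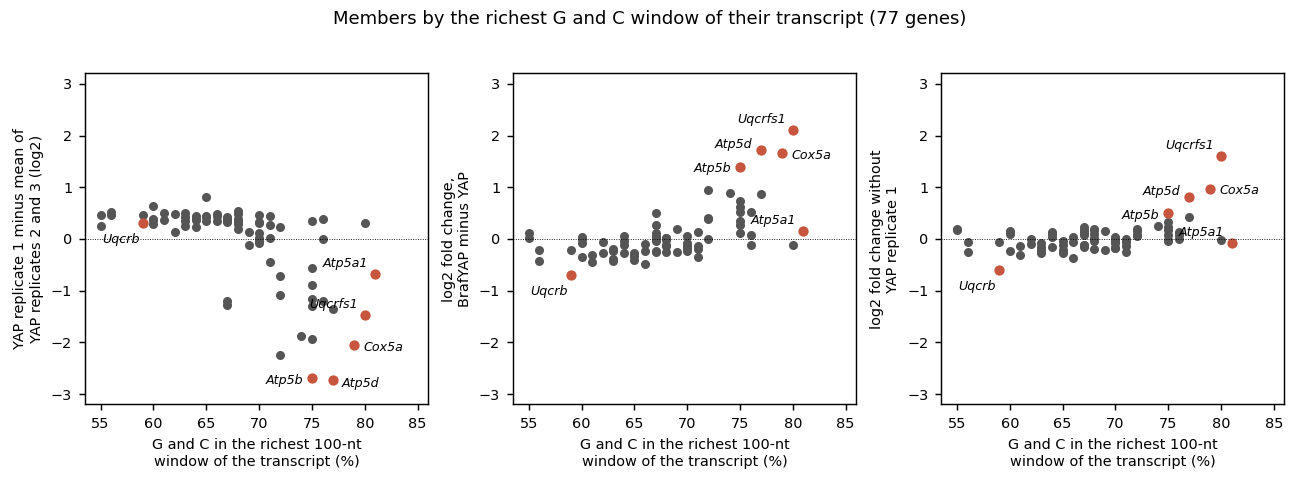
Each point is 1 of the 77 members, by the G and C content of the richest 100-nt window of its transcript (x, %) against, from left to right, YAP replicate 1 minus the mean of YAP replicates 2 and 3 (log2 units), the log2 fold change, and the log2 fold change without YAP replicate 1. Windows were taken at spaced starts. Members above about 70% lie low in the left panel and high in the middle panel. In the right panel most of them lie near 0, while Uqcrfs1 is at 1.61.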

How the data were processed

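RNA-seq libraries of Kate-positive sorted thyroid tumor cells (about 20000 cells, SMART-Seq amplification for 12 cycles, 8 further PCR cycles, 50-nt paired reads) were grouped by the titles in the labels. Reads were aligned by the authors with STAR 2.6.1d (mm10) and quantified with Partek E/M on an Ensembl annotation, and they deposited TPM with an offset of 0.0001. With genomic span as length, low TPM values of the deposited table were whole multiples of a step (within 0.05) for 72.4 to 76.5% of genes. At the same step the share with exonic length was 27.3 to 30.7%. The step was chosen for the highest share with the span and none was searched for exonic length, so these shares are not an even comparison. The length used was taken to be the span. Estimated reads and exonic TPM were recomputed from it with GENCODE M21. No molecular identifiers were used, and nothing says how far the libraries of a group are independent beyond separate tumors.

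Groups were compared with limma 3.58.1 in R 4.3.3 (lmFit, eBayes with trend, two-sided tests). Values entered as log2(value + 1), genes with a mean under 1 were left out, and p-values were adjusted by Benjamini-Hochberg with a threshold of 0.05. No block or batch entered the fit. Members, gene lists and motifs were chosen with earlier results of these data known. Genes named were core subunits, isoform families and members with an unadjusted p under 0.05 and groups apart. Atp5d, Ndufa1, Ndufa6, Ndufb2, Ndufs4, Cox7b, Uqcr10, Atp5l, the members low in YAP replicate 1, the pseudogenes and other members with groups apart were named after their values were seen. The fit was tested on simulated data. Alternatives were another pseudocount, minimum mean, scaling, moderation, weights (gene-by-gene array weights), the replicate block, each library left out, other lengths and protein-coding genes alone. Removing the trend on base composition and leaving out pseudogenes were chosen after seeing the data. Promoters were matched by symbol or unique RefSeq synonym. Values of 1 member are not reported here, and it is left out of the plots that name members, but it entered all counts and fits.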

Additional observations from a re-analysis of the deposited data

How the results depend on the processing

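The number of members called was 0 in all alternatives but array weights, where it was 2 (Uqcrfs1 and Cox5a), and leaving out 1 library, where it ran from 0 to 2 (2 without YAP replicate 2, the same 2 genes). Over all genes, calls were 18 in the fit reported and 1393 with array weights, 475 without YAP replicate 2, 79 with quantile normalization, 63 on exonic TPM, 36 with the trend on base composition removed, 20 without BrafYAP replicate 6, 3 at a minimum mean of 10, 1 with median-ratio size factors, with pseudocount 0.1 or without the variance trend, and 0 in the others. The median log2 fold change of complex II was -0.12 with the base composition trend removed and -0.16 with array weights, and that of complex III was 0.28 at a minimum mean of 10. Leaving out 1 library, the median ran from -0.20 to 0.26 for complex III and from -0.077 to 0.27 for complex IV. The median of all members was 0.01 with median-ratio size factors, with 40 members above 0, and -0.13 with quantile normalization, with 28 above 0. Signs turned for small values. With the base composition trend removed, Ndufv2 was -0.26, Uqcrc2 0.0096, Cox4i1 -0.16, Atp5a1 -0.31 and Cox7a2l 0.17. With array weights Cox4i1 was -0.0040, Atp5a1 -0.023, Cox6b2 0.49 and Ndufa4 -0.31, and Ndufa4 was -0.029 with quantile normalization. Leaving out 1 library, the ranges were -0.047 to 0.14 for Ndufs8, -0.037 to 0.27 for Cox4i1, -0.036 to 0.55 for Cox5b, -0.078 to 0.28 for Atp5a1, -0.69 to 0.061 for Cox6b2, -0.32 to 0.0025 for Cox7a2, -0.21 to 0.033 for Cox7a2l and -0.27 to 0.19 for Ndufa4. Of the values of single named genes under an alternative, 515 kept direction and side of the threshold, 4 gained the threshold, 0 lost it and 22 turned sign. The causes were not tested.

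Replicate numbers 1 and 2 occur in both groups. Deviations of same-numbered libraries from their group means correlated at -0.05 and 0.06 over 7319 genes. With so few libraries this cannot decide whether same-numbered libraries were paired or handled together, and the labels name no pairing. With the replicate block 0 members and 0 of all genes were called, and 24 members were above 0 with a median of -0.17. Ndufs8 was -0.089 and Ndufa4 -0.19. In that fit YAP replicate 3 and BrafYAP replicate 6 have no partner, so the group difference rests on replicates 1 and 2 alone. With 3 libraries per group the unadjusted 95% intervals of single members had a median half-width of 0.64 log2 units, and a difference of 2.10 (Uqcrfs1) did not pass the adjusted threshold.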

Other observations

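Among the mitochondrial ribosomal proteins, Mrps34, a small-subunit protein of the ribosome that translates the mitochondrially encoded subunits, had 0.750, 14.0 and 3.45 TPM in the YAP libraries and 18.6, 22.5 and 45.4 in the BrafYAP libraries. Its groups did not overlap (log2 fold change 2.50, SE 0.76, adjusted p = 0.144, limma), and without YAP replicate 1 the log2 fold change was 1.76. Mrps26, of the same subunit, had 0.282, 3.38 and 1.08 in YAP and 5.16, 5.34 and 5.63 in BrafYAP (1.49, SE 0.43, adjusted p = 0.131). The large-subunit proteins Mrpl18 and Mrpl21 lay the other way, with log2 fold changes of -0.61 and -0.58 and groups that did not overlap. Sco2, a copper chaperone for complex IV, had 0.333, 3.49 and 1.34 in YAP and 5.21, 7.84 and 4.73 in BrafYAP (1.50, SE 0.45, adjusted p = 0.140). In Mrps34, Mrps26 and Sco2 the lowest library was YAP replicate 1, as in the members described above.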
